A study of Mus musculus with 2 samples.

Results

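Mir328 and Mir346 are 2 of the 2202 miRNA genes counted in each of 2 libraries of short RNA from mouse hippocampus. They were taken by name, as the table rows whose identifiers are Mir328 (ENSMUSG00000070130.1) and Mir346 (ENSMUSG00000065481.1) in GENCODE M21. The pair was chosen by its counts in these libraries and by its difference between them, both already known, so their levels and the difference between the libraries are given as descriptions, with no test. The tissue came from 25-day-old female B6CASTF1/J mice, hybrid offspring of C57BL/6J and CAST/EiJ parents, with no treatment and no engineered allele named in the labels. The labels describe the tissue as a layer of the hippocampus without naming the layer. Replicates 1 and 2 form a single group: they carry different biosample identifiers and the same donor identifier, and nothing says whether they came from separate mice. The spread between them may therefore be partly technical.

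A miRNA is a short RNA cut from a hairpin and loaded into an Argonaute protein, and it pairs with messenger RNAs mainly through its seed, bases 2 to 8 from its 5′ end. The names of Mir328 and Mir346 were assigned among miRNAs cloned from rat cortical neurons, and both are known from brain tissue. miR-328 has been studied as a repressor of Bace1, the β-secretase that cleaves the amyloid precursor protein. miR-346 lies within Grid1, the gene of the glutamate receptor δ1 subunit, a protein that organises synapses, and it has been studied together with that host gene in psychiatric disease.

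Of the 2 members, 1 matched the RefSeq sequence table (GRCm38.p6), and the Mir346 sequences are shown because reads of its 2 arms are pooled in its count. In the mature sequences the capitals mark the seed, and in the hairpin they mark both mature arms, with 15 bases between them. A mature sequence of another gene that carries one of the seeds is printed below them.
mmu-miR-346-5p: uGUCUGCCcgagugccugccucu
mmu-miR-346-3p: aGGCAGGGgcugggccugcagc
Mir346 hairpin: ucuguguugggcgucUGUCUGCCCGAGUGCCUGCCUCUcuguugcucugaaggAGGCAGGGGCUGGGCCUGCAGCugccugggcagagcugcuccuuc
mmu-miR-7001-5p: aGGCAGGGugugagcgugagcau

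The 5p arm (23 bases, chr14:34894624-34894646, plus strand) has a seed that no other of the 1679 mature sequences in the table carries. The 3p arm (22 bases, chr14:34894662-34894683) shares its seed with 1 other, mmu-miR-7001-5p, whose gene Mir7001 had 0 counts in both libraries. With 0 counts seen, up to 3 remain possible, or 0.547 CPM in the first library and 0.703 CPM in the second, counting error only. The longest stretch that either Mir346 arm has in common with a mature sequence of another gene is 10 bases for the 5p arm and 11 bases for the 3p arm. The arms are rich in G and C, at 65.2% for 5p and 77.3% for 3p, and only 23 of the 1679 mature sequences have a higher share than the 3p arm.

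The 2 genes sit differently in their surroundings. In mm10, Mir328 lies on chromosome 8 from 105308364 to 105308460 on the minus strand, opposite to the plus-strand gene Elmo3, which encodes a scaffold protein of the Rac-activating ELMO family. Of its 97 bases, 85 fall opposite an Elmo3 intron of only 108 bases (intron 13 of the transcript with 20 exons) and 12 opposite the exon that follows. Mir346 lies on chromosome 14 from 34894609 to 34894706 on the plus strand, the strand of Grid1, and all of its 98 bases fall in intron 2 of that gene, an intron of 123044 bases. The placement of Mir328 is the rarer one. Among the 433 detected miRNA genes, those with a CPM (counts per 1000000 gene counts) of at least 2 in each library, 24 overlapped protein-coding genes only on the opposite strand, 242 overlapped one on the same strand and 167 overlapped none. Of those 24 genes, 3 had a higher mean CPM than Mir328, and of the 242 like Mir346, 38 had a higher mean CPM than Mir346.

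**Figure D1:**
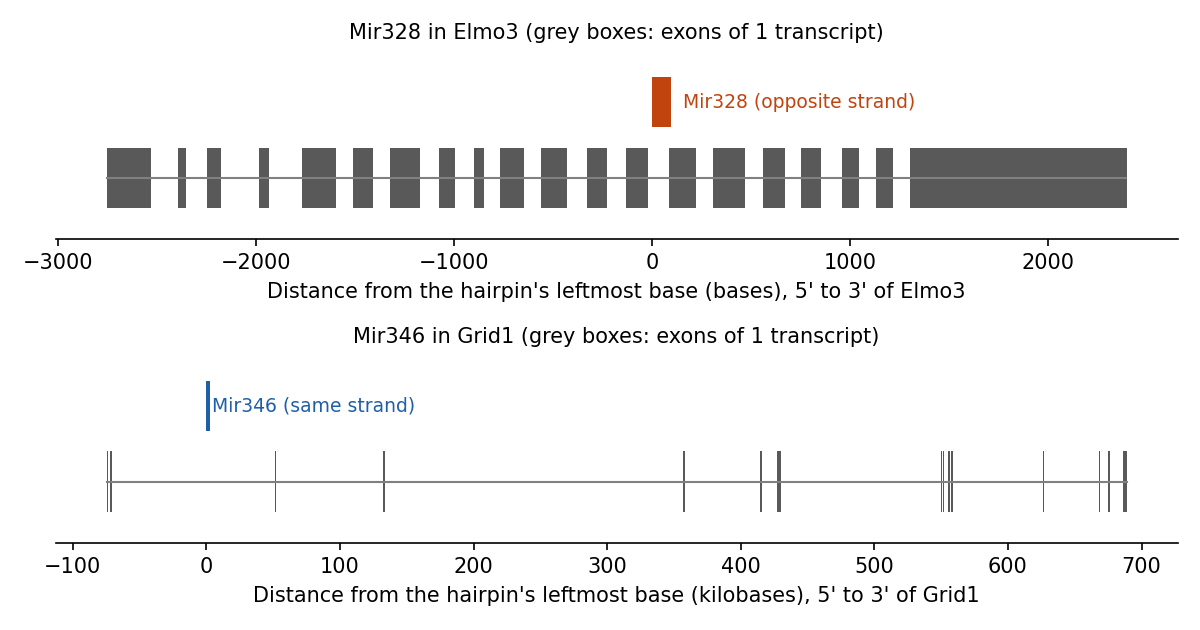
Exons (grey boxes) of 1 Elmo3 transcript and 1 Grid1 transcript, drawn to scale by distance from each miRNA hairpin's leftmost base, in bases for Elmo3 and kilobases for Grid1. Mir328 lies opposite a short intron between closely spaced exons, whereas Mir346 lies in the long intron 2, 74501 bases from the start of Grid1 (narrow boxes, that of Mir346 among them, are widened to be visible).

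Strand was kept apart in the counts, which made little difference to Mir328, although it lies opposite Elmo3. On its own strand it had 58475 counts in replicate 1 and 8620 in replicate 2, and on the strand of Elmo3 it had 2 and 0. Mir346 had 14232 and 1272 counts on its own strand and 0 on the other in both libraries. Without regard to strand the tables give 58477 and 8620 counts for Mir328 and unaltered numbers for Mir346. In that count neither gene thus lost reads to a miRNA gene on the opposite strand. Loss to a gene on the same strand cannot be read from these counts, but only Elmo3 and Grid1 are annotated as overlapping the members. A second miRNA gene is annotated opposite Elmo3, Gm27320, 463 bases from Mir328, and it had 0 counts on both strands in both libraries.

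The libraries hold 5481053 counts in miRNA genes in replicate 1 and 4266963 in replicate 2. They are 35.4% and 31.2% of the reads in each table, and reads that match several places, 41.9% and 46.4%, enter no gene. On the neuronal list, 15 of 18 genes were detected and none was without counts in both libraries, and the list took 6.04% and 8.39% of the counts. It is led by Mir149, Mir128-1 and Mir132. Several of its genes have copies, those of Mir124a and Mir9 among them, and reads that match several places leave them out. The list's share, and its ratios given below, therefore rest on the reads that could be placed. Of 7 striated muscle genes 1 was detected, at summed levels of 27.5 and 39.8 CPM. That list is no check of the tissue, since the Mir1a and Mir133a genes among the 7 have copies and reads that match several places leave them out.

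Mir328 was the more abundant of the pair in both libraries. It stood at 10669 CPM in replicate 1 and 2020 CPM in replicate 2, a mean of 6344 ± 6115 CPM (SD, n = 2). It took 1.07% of the counts of replicate 1 (95% Clopper-Pearson interval 1.06 to 1.08) and 0.202% of those of replicate 2 (0.198 to 0.206). In rank it was gene 22 of the table in replicate 1 and gene 80 in replicate 2. It thus lay far above the median detected gene in both, by 147-fold and 16.9-fold, although the SD between the libraries was nearly as large as the mean.

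Mir346 stood at 2597 CPM in replicate 1 and 298 CPM in replicate 2, a mean of 1447 ± 1625 CPM (SD, n = 2). Its shares were 0.260% (0.255 to 0.264) and 0.0298% (0.0282 to 0.0315) of the counts. It was gene 62 in replicate 1 and gene 166 in replicate 2. In replicate 1 it was 35.7-fold above the median detected gene and in replicate 2 2.50-fold, so that in the second library it was an ordinary detected miRNA. Its SD exceeded its mean. The coefficient of variation of CPM was 96.4% for Mir328 and 112% for Mir346, beside a median of 41.3% over the detected genes. Depth does not limit these levels, since the smallest count behind them is 1272, and the intervals, which cover counting error only, are narrow beside the gap between the libraries.

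Both members were thus higher in replicate 1. Mir328 was 5.28-fold higher there (exact 95% interval from the counts 5.16 to 5.40) and Mir346 8.71-fold (8.22 to 9.23). On the scale log2 of (CPM + 1), the differences of replicate 2 from replicate 1 were -2.40 for Mir328 and -3.12 for Mir346. The median difference of the detected genes was 0.27, and against it Mir328 was at -2.67 and Mir346 at -3.38. Of the detected genes 63.0% differed by more than 1.5-fold in either direction, 23.6% in the direction of the members (102 of 433) and 39.5% in the other, and 5.08% were more than 4-fold lower in replicate 2 (22 of 433). Both members are among these 22. The balance of the background depends on the scaling: 102 genes were lower and 171 higher by more than 1.5-fold with library totals, 139 lower and 129 higher with TMM scaling, and 139 lower and 127 higher with DESeq2 size factors. The members had been chosen with this contrast known, so nothing is read from their place in it. In bulk tissue, fewer cells that hold a miRNA and less of it per cell cannot be told apart.

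Counted from the largest decrease among the 433 detected genes, Mir346 was gene 5 and Mir328 gene 14, with 8 genes between them. Among the 218 genes with a mean of at least 100 CPM they were genes 5 and 10. Here 28.0% were lower in replicate 2 by more than 1.5-fold and 7.34% by more than 4-fold. Of the 31 genes with a higher mean CPM than Mir328, 0 had a lower log2 ratio. The nearest to it among them was Mir132, induced by neuronal activity, at -2.09. Mir346 had 96 genes above it in mean CPM, and 3 of these had a lower log2 ratio.

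**Figure D2:**
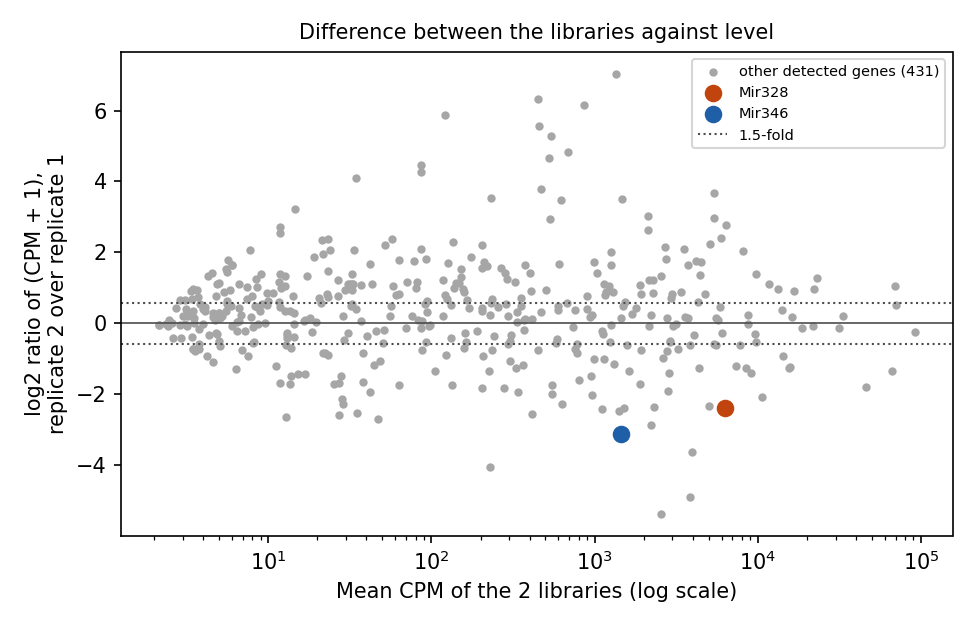
Difference between the libraries (y axis, log2 ratio of CPM + 1, replicate 2 over replicate 1) against the mean CPM of the 2 libraries (x axis, log scale) for the 433 detected miRNA genes. Mir328 at -2.40 and Mir346 at -3.12 lie in the lower part of the cloud, well below the dotted lines at 1.5-fold. Of the genes with a higher mean CPM than Mir346, 3 lie lower still, down to Mir219a-2 at -5.37.

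The 2 members did not keep a fixed proportion. Replicate 1 held 4.11 counts of Mir328 for each count of Mir346 (exact 95% interval 4.03 to 4.18) and replicate 2 held 6.78 (6.39 to 7.19). These intervals do not overlap. The proportion of Mir346 to Mir328 was 1.65-fold higher in replicate 1 (1.55 to 1.76), a value that no scaling of the libraries can alter. It covers counting error only, with 1 library on each side. Together the pair made up 1.33% of the gene counts of the first library and 0.232% of those of the second. The order of the pair within a library also depends on how readily each sequence is ligated and amplified, which was not measured. A mature miRNA is read whole, so no scaling by length was made.

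The genes whose levels lay nearest to each member were sought by the distance between log2(CPM + 1) values over the 2 libraries. With only 2 points for each gene, this measure says that the levels are close and no more. Closeness in both libraries also largely fixes the direction of a neighbour's difference between them, which is given as a description of the genes found. Nearest to Mir328 was Mir423 at a distance of 0.45, with 8384 CPM in replicate 1 and 1665 in replicate 2. Mir138-1 (distance 0.86), an inhibitor of dendritic spine growth with a copy at a second locus, followed at 6200 and 2590 CPM. The others were Mir330 (distance 1.15), Mir132 (1.21) and Mir411 (1.30). All 5 were higher in replicate 1, with ratios from 1.53-fold for Mir411 to 5.04-fold for Mir423.

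Nearest to Mir346 was Mir129-2 (distance 0.53), a brain miRNA gene on chromosome 2, at 1867 and 348 CPM. Of the other 4 genes, 3 belong to the imprinted Dlk1-Dio3 cluster of chromosome 12, whose miRNAs are made from the maternal copy. They were Mir543 (distance 0.54) at 2409 and 430 CPM, Mir667 (0.72) at 2558 and 491 CPM, and Mir668 (1.03) at 3926 and 533 CPM. Mir1839 (0.83) was at 1542 and 382 CPM. The ratios of replicate 1 to replicate 2 ran from 4.04-fold for Mir1839 to 7.36-fold for Mir668, all below the 8.71-fold of Mir346. The imprinted cluster is not particular to the neighbours of Mir346. Mir411, a neighbour of Mir328, lies in it too (chromosome 12 from 109710175 to 109710256). How many of all detected genes belong to the cluster was not counted. Among the 18 mature sequences of the 10 nearest genes of both members, 0 carry a seed of Mir346. This was fixed in advance, since the only other gene with such a seed in the RefSeq sequence table, Mir7001, was not detected. That table has no entry for Mir328.

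**Figure D3:**
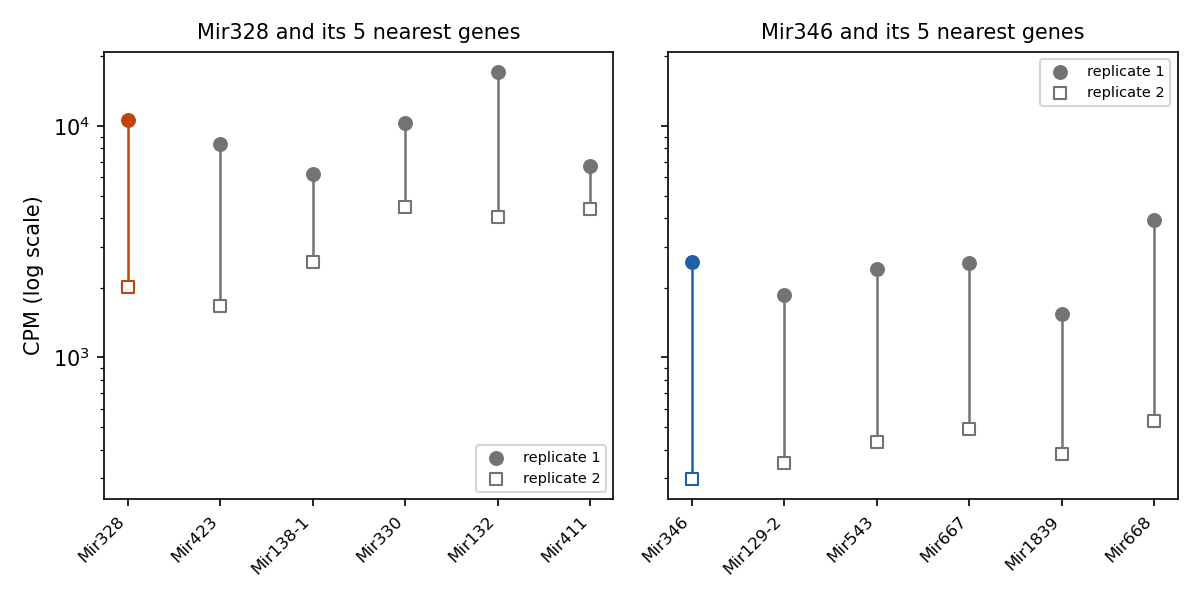
CPM (log scale) of Mir328 and Mir346 and of the 5 detected genes nearest to each, in replicate 1 (filled circles) and replicate 2 (open squares), 1 library a point. The direction that the genes share, higher in replicate 1, largely follows from how the neighbours were found, and the line joining the points of Mir346, from 2597 to 298 CPM, is the longest of its panel.

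Other miRNA genes with names numbered close to those of the members, drawn up as a list of 20, gave 18 matches in the table and 16 detected genes. The list's summed levels were 36475 and 37159 CPM. Of its 16 detected genes 2 were lower in replicate 2 by more than 1.5-fold, 3 were higher and 11 were within that fold, and the median log2 ratio was 0.24, beside 0.27 for all detected genes. Of all detected genes 23.6% were lower and 39.5% higher by that fold. With TMM scaling or DESeq2 size factors 6 of the 16 were lower and 3 higher. The background with TMM scaling was 139 lower and 129 higher of 433. None of the 16 had a log2 ratio as low as that of Mir328. The most abundant were Mir324, Mir330 and Mir342 with mean CPM of 8690, 7394 and 5876. The lowest ratios were those of Mir330 at -1.20 and Mir338, a miRNA of oligodendrocytes, at -1.0, and the highest those of Mir335 at 1.77 and Mir350 at 1.42. Mir343 and Mir344 had no count in either library.

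Like Mir346, a number of miRNA genes lie within host genes that were listed here as neuronal or synaptic. How far each host is limited to neurons was not examined, and several are not known as neuronal genes only. The miRNA itself may also be known from other cells, as is Mir338, which is on this list too. Of 21 such genes 20 were detected, 7 were lower in replicate 2 by more than 1.5-fold, 9 were higher and 4 were within that fold, with a median log2 ratio of 0.26. Of all detected genes 23.6% were lower and 39.5% higher by that fold. With TMM scaling or DESeq2 size factors 8 of the 20 were lower and 3 higher, with a median of -0.09. The background with TMM scaling was 139 lower and 129 higher of 433. The abundant genes of the list were split. Mir139, in Pde2a, was 2.52-fold higher in replicate 1 (95828 and 38073 CPM), whereas Mir149, in Gpc1, was 2.43-fold higher in replicate 2 (13509 and 32894 CPM) and Mir128-1, in R3hdm1, 1.88-fold (11606 and 21819 CPM). The lowest ratio of the list, -2.37, was that of Mir874, at 3890 and 751 CPM. It stands just above that of Mir328, and none of the 20 reached the value of Mir346. The next lowest was Mir218-2 at -1.73, and the highest were Mir153 at 1.73 and Mir128-2 at 1.37. The list of neuronal miRNAs is not independent of this one: 7 of its 15 detected genes are the same, 46.7% of it and 35.0% of the 20. It had 6 genes lower and 8 higher by more than 1.5-fold with a median of 0.70, or 6 lower and 6 higher with either other scaling, and 0 of the 15 were as low as Mir328.

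Lists of other cell types and states differed between the libraries together with the members, and their part in the members' difference was not tested. The background for the counts below is that 23.6% of all detected genes were lower and 39.5% higher in replicate 2 by more than 1.5-fold. The miR-29 genes, which rise as the brain matures, were the list nearest in direction and size. All 4 were detected and lower in replicate 2 by more than 1.5-fold, with a median log2 ratio of -2.62 and summed levels of 8284 and 398 CPM. Of these 4 genes, 3 had a ratio at or below that of Mir328 and 1, Mir29a, at or below that of Mir346. Mir29b-1 (58.4 and 17.8 CPM) and Mir29b-2 (82.8 and 12.0 CPM) are copies, and reads that match several places leave them out. Their ratios, and the median with them, rest on the reads that could be placed. Oligodendrocyte genes had 3 of 4 detected, summed levels of 6503 and 939 CPM and a median of -1.0, from -5.37 for Mir219a-2, a gene with copies elsewhere, to 2.06 for Mir219a-1.

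The opposite direction was taken by the epithelial and sensory genes and by those of the Mir17 cluster, known from progenitor cells. The former had 6 of 8 detected, all 6 higher in replicate 2, and summed levels of 101 and 7663 CPM. The latter had 4 of 6 detected, all 4 higher (3 with either other scaling), and summed levels of 2473 and 15989 CPM.

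In the remaining lists the sums rested on a few genes, and only in the endothelial and mural list did the same gene lead by far in both libraries. Endothelial and mural genes (3 of 4 detected) summed to 21958 and 12895 CPM, with 1 lower and 2 within 1.5-fold and a median log2 ratio of -0.41. The lower one was Mir126a (18708 and 9834 CPM), and Mir126b had no count in either library. Microglial and immune genes (5 of 5) summed to 1986 and 1099 CPM because of Mir150 (1215 and 397 CPM), whereas 3 genes had more CPM in replicate 2 by over 1.5-fold and 1 had less, with a median of 1.05. With either other scaling 2 genes were lower on each of these lists. Choroid plexus and ciliated genes (4 of 6) summed to 982 and 2304 CPM, with 1 higher, Mir449a (101 and 1139 CPM), 3 within 1.5-fold and a median of 0.48. Erythroid genes (3 of 3) summed to 88.1 and 65.9 CPM, with 2 lower, 1 higher and a median of -1.42. None of the 15 detected genes of these 4 lists had a ratio as low as that of Mir328.

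**Figure D4:**
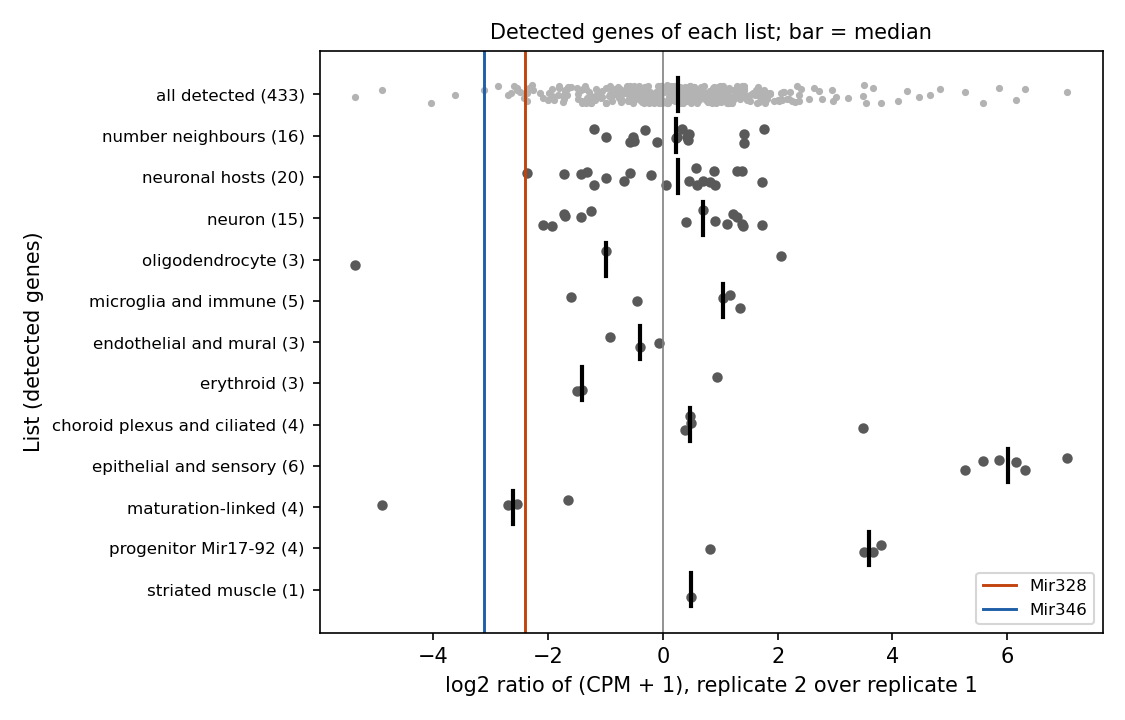
Log2 ratio of CPM + 1, replicate 2 over replicate 1 (x axis), of each detected gene (points) of the lists on the y axis, with the number of detected genes in brackets and the list's median as a black bar; vertical lines mark Mir328 (-2.40) and Mir346 (-3.12). The "number neighbours" are the genes with names numbered near the members, and the median of the maturation-linked miR-29 genes, -2.62, is the only list median at or below the Mir328 line.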

How the data were processed

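Short RNA was sequenced from 2 hippocampus samples of 1 group. The authors deposited 1 table of raw counts for each library, with whole reads per miRNA gene, made on mm10 with GENCODE M21 per the deposited text. Which aligner, trimming and counting options were used is not given in the sources used here. The 3 value columns have no header. The strand column with the larger total was used, the first column being read as counts without strand. The 4 rows that name no gene stayed out of all totals.

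CPM (counts per 1000000 gene-row counts), log2 ratios with 1 CPM added, exact 95% intervals and ranks were computed with Python 3.11.15 and scipy 1.17.1, and checked on simulated data. Folds are ratios of CPM with nothing added. All 2202 identifiers matched GENCODE. With 1 library on each side no test was made. Alternatives were TMM scaling (edgeR 4.0.16), DESeq2 1.42.0 size factors, counts without strand, another denominator, other CPM filters and added values, and each library alone.

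The members, the 2 lists of related genes and the 10 marker lists were chosen with earlier results of these data known. Genes were named only from among the members, the 5 nearest detected genes to each, genes sharing a seed or host, and of each list the 3 most abundant and, at either end of the log2 ratios, the 2 most extreme. The counts of genes by strand of the overlapping gene, and Mir126b, Mir343 and Mir344, were chosen after values were seen. Outside this rule, the Mir1a, Mir133a, Mir124a and Mir9 genes were named because they have copies. Reads of CAST/EiJ alleles that differ from mm10 may be lost in placement; alleles were not analysed here.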

Additional observations from a re-analysis of the deposited data

How the results depend on the processing

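Both members stayed lower in replicate 2 under all 5 alternatives run for each. With TMM scaling the log2 ratios moved to -2.76 for Mir328 and -3.48 for Mir346, and with DESeq2 size factors to -2.76 and -3.48, since these scalings shift the median of the detected genes by -0.33. Relative to that median Mir328 was at -2.69 and Mir346 at -3.41 with either scaling, beside -2.67 and -3.38 with library totals. Their places from the largest decrease stayed at 14 and 5. Each scaling applies a single factor to a library, so these places and distances could hardly change and are no check. Counts without strand gave places 11 and 4. They also changed some lists, for reasons that were not tested. The oligodendrocyte median became -0.26, with 0 genes as low as Mir328, and the endothelial and mural list had 0 genes lower and 1 higher. The microglial and immune median and the erythroid median became exactly 0.0. That is the log2 ratio of a gene without counts in either library, as for Mir343 above. These medians therefore do not show equal levels in the libraries. The 4 miR-29 genes all stayed lower, with a median of -2.65. Of the 273 detected genes past 1.5-fold, 62.6% were higher in replicate 2, against 48.1% of 268 with TMM and 47.7% of 266 with DESeq2 size factors. Without a CPM filter 618 genes of 820 were past that fold, genes with 0 counts in 1 library included. Mean levels ranged from 2020 to 10669 CPM for Mir328 and from 298 to 2597 CPM for Mir346 when either library was left out. Per 1000000 mapped reads, including those with several places, the means were 2661 and 611. No paired analysis was possible because there is only 1 group.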
